A study of Homo sapiens with 14 samples.

Results

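Nascent transcription of 9 chemokine and cytokine genes was followed in A549, a human lung adenocarcinoma line, across 14 libraries of precision run-on sequencing (PRO-seq). This assay sequences RNA that engaged RNA polymerases extend in permeabilized cells, so its counts follow transcription rather than stored mRNA. The genes were CXCL1, CXCL2, CXCL3, CXCL5, CXCL8, CCL2, IL6, IL11 and LIF. They were taken by symbol from the 58780 genes of the deposited count table because each is known as an inflammatory gene that glucocorticoids repress.

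The libraries formed 7 groups of 2. Untreated cells were labelled 15 min in 0.01% DMSO, and every other group was in the same concentration of DMSO. GSK591, an inhibitor of the arginine methyltransferase PRMT5, was given at 1 µM for 15 min or for 3 h. MS023, an inhibitor of the type I arginine methyltransferases, was given at 1 µM for the same times. In the last 2 groups, 100 nM dexamethasone (Dex), a synthetic glucocorticoid, was given together with GSK591 or with MS023 for 15 min. The labels name no inflammatory stimulus. Untreated cells held for 3 h and cells given Dex alone are not analysed here, so an effect of 3 h of inhibitor cannot be told apart from one of time, and each effect of Dex is one measured beside an inhibitor.

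Total counts per library ran from 5768312 to 9606938, of which mitochondrial transcripts took 39.8% to 58%. The 2 libraries of GSK591 with Dex differed most, with a chi-square of 15.4 per degree of freedom against 2.15 in the untreated pair. For the members tested, values of Dex beside GSK591 are therefore also given without each of these libraries. For other genes they are not. The 10 genes listed as markers of lung adenocarcinoma epithelium, metabolic genes among them, all passed the count filter. Their summed level was 1385 to 1908 CPM (counts relative to the scaled total of the library) per library. Mean levels of the single genes ran from 2.20 to 485 CPM. Fibroblast markers summed to 5.42 to 8.79 CPM and endothelial ones to 0.24 to 1.84 CPM. Leukocyte markers, which could mark another source of these ligands, summed to 4.42 to 7.19 CPM, 2 of 6 passed the filter and 1 had no count. Whether replicates came from separate cultures is not stated, so p-values measure the spread between these libraries, which may be technical. Glucocorticoid-induced genes went with the Dex label. Of 12 listed 11 were tested, and all 11 rose wherever Dex libraries were compared with the matching inhibitor or with untreated cells. In those comparisons 3.7% to 8.97% of all genes were called in either direction. The list was chosen with earlier results of these data known, so it is no independent test of the label.

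The 5 CXC chemokines draw neutrophils to inflamed tissue through the receptor CXCR2, and CXCL8 also uses CXCR1. CCL2 draws monocytes through CCR2. IL6, IL11 and LIF are cytokines of the IL-6 family, which signal through the shared receptor subunit gp130, encoded by IL6ST, to JAK kinases and STAT3. The transcription factor NF-κB drives many of these genes when cells meet inflammatory signals. Glucocorticoids are known to lower their output, both through the glucocorticoid receptor acting on transcription at NF-κB and AP-1 sites and through proteins such as ZFP36 that speed decay of AU-rich mRNA.

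The CXC chemokine genes lie together on chromosome 4 (GRCh38), in the order CXCL8, CXCL1, CXCL5, CXCL3 and CXCL2 over 358788 bases. CXCL8 (73740506 to 73743716) and CXCL1 (73869393 to 73871242) are on the plus strand. CXCL5 (73995642 to 73998779), CXCL3 (74036589 to 74038807) and CXCL2 (74097035 to 74099293) are on the minus strand. The other protein-coding genes in that stretch, CXCL6, PF4V1, PF4 and PPBP, held 0 to 5 counts per library. CCL2 is on chromosome 17 (34255218 to 34257203, plus strand), IL6 on chromosome 7 (22725884 to 22732002, plus strand), IL11 on chromosome 19 (55364389 to 55370463, minus strand) and LIF on chromosome 22 (30240447 to 30246851, minus strand).

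CXCL1, CXCL2 and CXCL3 are near copies of each other, and the promoters of these 3 are shown because CXCL2 was called higher with Dex while the other 2 were not. The sequences are the 250 bases before each RefSeq start (GRCh38.p14), written along the strand of the gene. CXCL1 is chr4:73869143-73869392 on the plus strand, CXCL2 is chr4:74099196-74099445 on the minus strand and CXCL3 is chr4:74038690-74038939 on the minus strand. Capitals mark the NF-κB motif GGAATTTCC and the half-site of the glucocorticoid response element, AGAACA.
CXCL1: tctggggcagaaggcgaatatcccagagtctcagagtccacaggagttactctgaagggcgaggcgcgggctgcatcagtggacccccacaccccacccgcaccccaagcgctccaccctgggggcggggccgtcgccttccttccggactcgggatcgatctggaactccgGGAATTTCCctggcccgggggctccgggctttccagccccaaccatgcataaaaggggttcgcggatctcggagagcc
CXCL2: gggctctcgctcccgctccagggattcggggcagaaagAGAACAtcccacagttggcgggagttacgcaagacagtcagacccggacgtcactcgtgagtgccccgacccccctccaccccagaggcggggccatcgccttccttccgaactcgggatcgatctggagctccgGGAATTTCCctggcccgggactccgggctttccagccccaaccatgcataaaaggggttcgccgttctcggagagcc
CXCL3: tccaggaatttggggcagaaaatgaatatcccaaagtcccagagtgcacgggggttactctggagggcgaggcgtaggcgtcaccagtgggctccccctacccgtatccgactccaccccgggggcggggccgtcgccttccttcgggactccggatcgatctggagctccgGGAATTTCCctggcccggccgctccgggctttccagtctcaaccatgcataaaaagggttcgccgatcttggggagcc

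The NF-κB motif begins 78 bases before the start of CXCL1 and CXCL3 and 77 bases before that of CXCL2. RefSeq promoters of 300 bases (250 before to 50 after the start) were matched for 7 of the 9 genes, not for CCL2 or LIF. On either strand, GGAATTTCC was present in 5 of the 7 (CXCL5 and CXCL8 as well as this trio), against 162 of all 35116 promoters, or 0.461%. The looser GGANNTTCC, which contains every GGAATTTCC match, was present in those 5 and in IL6, against 4.565% of promoters. The AP-1 motif TGANTCA was found in CXCL8 and IL11, against 7.709%. The string TATAAA, a narrow form of the TATA box, was found in CXCL8, against 11.53%. Other forms were not searched, so the other windows may still hold a TATA box. AGAACA was found in CXCL2, 212 bases before its start, and in 14.785% of all promoters. The string TTGCNNNAA, present in 9.212% of promoters, and the inverted negative glucocorticoid element CTCCNGGAG, present in 2.008%, were in none of the 7 windows. TTGCNNNAA is wider than the C/EBP site it was meant to find, so its absence says nothing about C/EBP sites. These matches describe letters within the windows and were not tested for binding. Aligned over their 300 bases, the windows of CXCL1 and CXCL3 shared 82.47% of positions, those of CXCL2 and CXCL3 73.75% and those of CXCL1 and CXCL2 71.86%.

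The transcripts share sequence too, which bears on how reads are assigned. Of the 36-base words in CXCL2 transcripts, 19.0% also occur in another gene, chiefly CXCL3 and CXCL1, against 11.2% for CXCL1 and 8.14% for CXCL3. How reads that fit several genes were counted is not given in the sources used here, so values within the trio carry that uncertainty.

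Levels differed widely between the 9 genes, and 2 were too low or nearly too low to judge. Per kilobase of exon, over all 14 libraries, CXCL2 stood highest at 16.4 CPM and LIF next at 10.1 CPM. They were followed by CXCL1 at 7.88, CXCL3 at 4.97, CXCL5 at 4.69, IL11 at 3.59 and CCL2 at 2.85 CPM per kilobase. Whether reads were counted over exons or over the whole gene is not given in the sources used here. Exons cover 2671 of 6075 bases of IL11 and all 1986 of CCL2, so the order and the percentiles below assume counts over exons. This order also pools groups that differ. In untreated cells alone CXCL2 and LIF were close, at 12.1 and 11.8, and CXCL5 at 4.89 and IL11 at 4.57 stood above CXCL3 at 4.13. Over all libraries CXCL2 lay at the 93.3rd percentile of the genes tested, LIF at the 86.4th and CCL2 at the 51.5th. CXCL8, the best known neutrophil attractant of the group, reached 0.443 CPM per kilobase, the 7.21st percentile, with 4 to 12 counts per library. It passed the count filter, but its Dex contrasts had standard errors of 0.50 beside GSK591 and 0.59 beside MS023 on the log2 scale, so only large changes could have been seen. IL6, the founding cytokine of its family, had 0 to 5 counts per library and 31 in all 14, failed the filter and is too low to judge. Its counts were 1 and 5 in untreated cells, 1 and 5 with GSK591 and Dex, 1 and 0 with MS023 and Dex, and 4 and 3 after 3 h of MS023. The other 8 genes entered the test over 21910 genes.

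**Figure D1:**
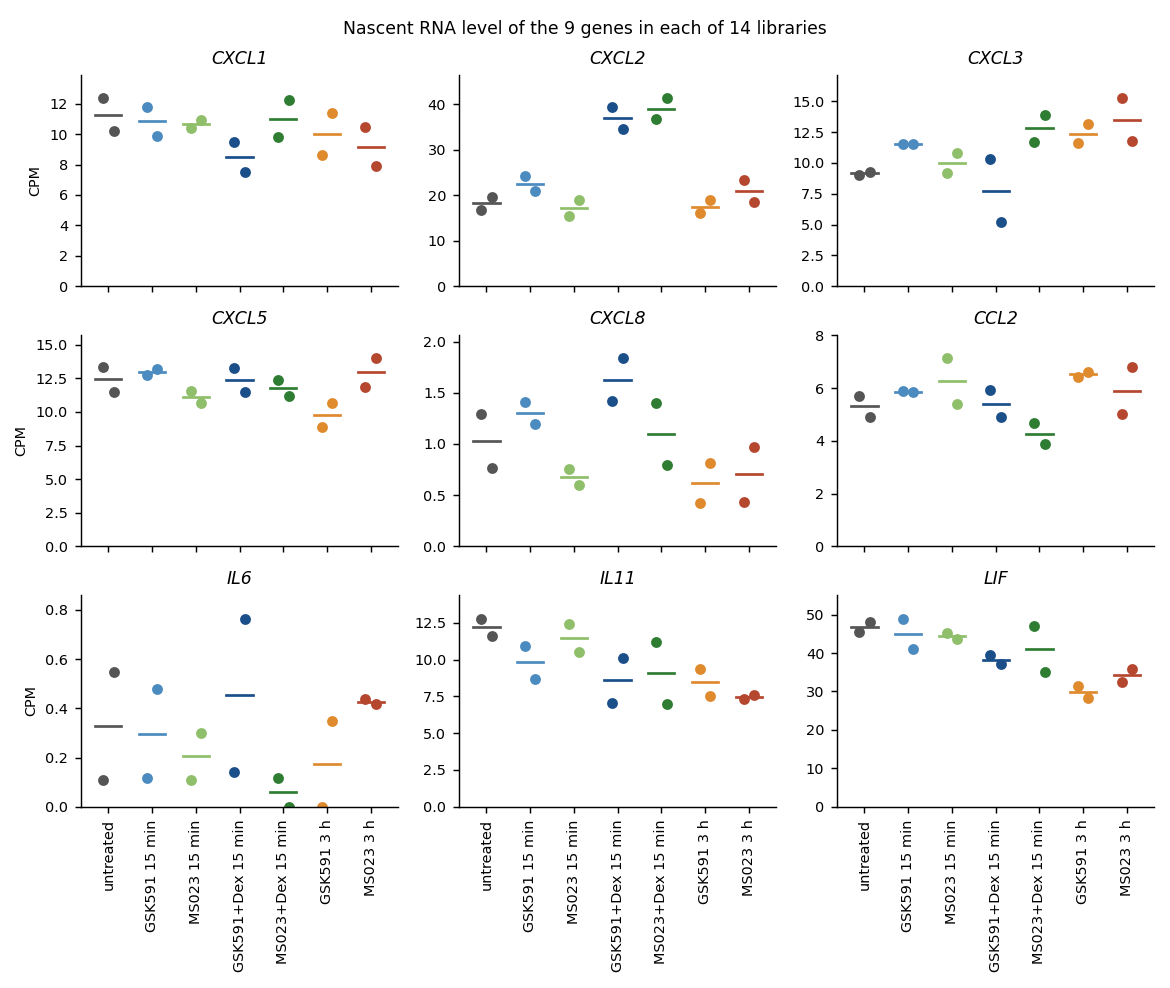
Nascent RNA level of each of the 9 genes in CPM (vertical axis, from 0, with its own scale per gene) in each of the 14 libraries, by group. Points are libraries and horizontal lines are group means. The 4 Dex libraries of CXCL2 sit between 34.6 and 41.3 CPM, above the 10 others at 15.5 to 24.1 CPM, and LIF is lowest in the groups given an inhibitor for 3 h.

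CXCL2 rose with Dex, and no other of the 8 genes tested was called in either direction. CXCL2 (ENSG00000081041.8) encodes a neutrophil chemokine also known as MIP-2 alpha. Its level was 16.7 and 19.7 CPM in the untreated libraries, 24.1 and 20.9 CPM after 15 min of GSK591 and 15.5 and 18.9 CPM after 15 min of MS023. With Dex added for the same 15 min it stood at 39.3 and 34.6 CPM beside GSK591 and at 36.7 and 41.3 CPM beside MS023. Every Dex library was above every library without Dex, those held for 3 h included. Raw counts of CXCL2 ran from 126 to 362 per library.

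Against the same inhibitor alone, the rise of CXCL2 was 0.72 ± 0.14 (SE) on the log2 scale beside GSK591, or 1.64-fold, with an edgeR adjusted p of 0.000799. CXCL2 was the 1 member of 8 called there, where 3.7% of all genes tested were called. Without replicate 1 of GSK591 with Dex its rise was 0.62 (adjusted p 0.0202), and without replicate 2 it was 0.82 (adjusted p 0.00146). Beside MS023 the rise was 1.20 ± 0.14, or 2.29-fold, with an adjusted p of 4.03e-08, again the 1 member called, against 8.97% of all genes. Averaged over both inhibitors the rise was 0.96 ± 0.10 (95% interval 0.76 to 1.15) with an adjusted p of 1.43e-09, the 1 member called, against 12.5% of all genes. Scaled by library size alone, the rise beside GSK591 was 0.52 with an adjusted p of 0.05, which is no call, while the calls beside MS023 and in the average held under every alternative run.

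Set against untreated cells, the level of CXCL2 was higher in both Dex groups. Untreated cells had 18.2 ± 2.1 CPM (SD, n = 2) and cells given GSK591 plus Dex had 37.0 ± 3.4 CPM, a log2 difference of 1.02 ± 0.14 (SE, adjusted p 2.43e-06). With MS023 plus Dex it reached 39.0 ± 3.3 CPM, a difference of 1.10 ± 0.13 (adjusted p 1.35e-07). It was the 1 member of 8 called in each of these comparisons, where 5.85% and 7.66% of all genes were called. In the comparison with MS023 and Dex, CXCL3 was also called, at 0.48 (adjusted p 0.0432), in a fit of these 2 groups alone, and IL11, at -0.81 (adjusted p 0.0486), without replicate 1 of MS023 with Dex. The comparisons share the untreated libraries with each other and the Dex libraries with those above, so they are not separate evidence. In the authors' deposited table the same contrasts gave CXCL2 a log2 fold change of 0.90 ± 0.24 (adjusted p 0.0177) and 0.98 ± 0.24 (adjusted p 0.00414).

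The rise beside MS023 was larger in size than that beside GSK591, but the difference did not pass the test. It was -0.48 ± 0.19 (GSK591 minus MS023, 95% interval -0.87 to -0.09), with an adjusted p of 0.309. edgeR called 0 of the 8 members for a difference between the Dex effects, against 1.15% of all genes. At an unadjusted p under 0.05 there were 2, CXCL2 and CXCL3, and DESeq2 called 0. The endpoints with Dex, 37.0 and 39.0 CPM, differed by -0.08 ± 0.13 on the log2 scale (95% interval -0.33 to 0.18).

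**Figure D2:**
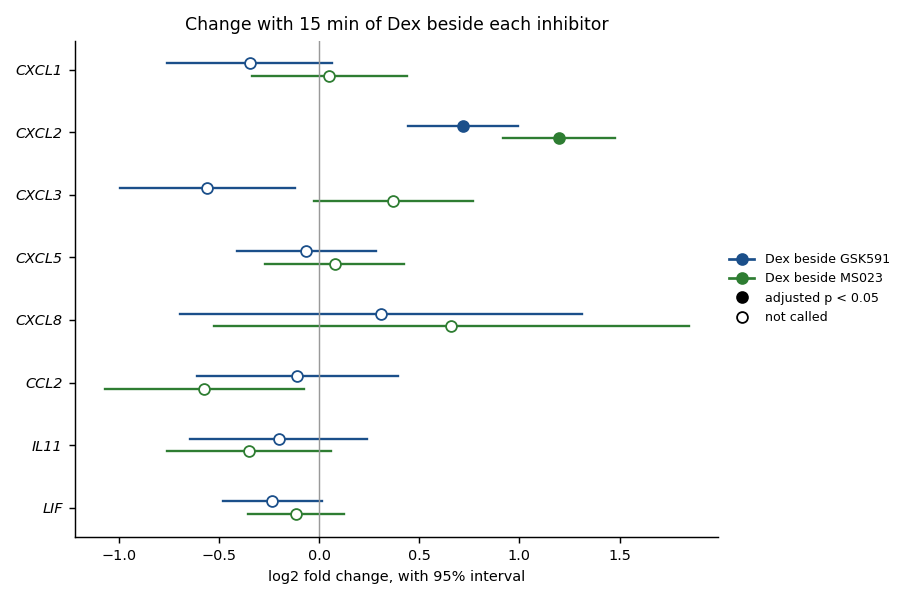
Log2 fold change (horizontal axis) with 15 min of Dex beside GSK591 (blue) and beside MS023 (green) for the 8 members tested. Bars are 95% intervals and filled points have an adjusted p under 0.05. CXCL2 is called in both, at 0.72 and 1.20, and the open points of the other 7 genes are not called.

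CXCL1 and CXCL3, the close relatives of CXCL2, were not called with Dex. CXCL1, also known as GRO alpha, ran from 7.50 to 12.2 CPM in the 4 Dex libraries and from 9.90 to 11.8 CPM in the 4 libraries with an inhibitor alone for 15 min, so the sets overlapped. Its change with Dex was -0.35 ± 0.20 beside GSK591 (adjusted p 0.416) and 0.05 ± 0.19 beside MS023 (adjusted p 0.92). The former was -0.53 without replicate 1 of GSK591 with Dex and -0.18 without replicate 2, and the latter ran from -0.11 to 0.21 when 1 library was left out, with no call in any case. The 95% interval of its averaged change, -0.43 to 0.14, lies below that of CXCL2, 0.76 to 1.15.

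CXCL3, also known as GRO gamma, gave values of opposite sign beside the 2 inhibitors, and neither was called. Untreated cells had 9.03 and 9.31 CPM, against 11.5 and 11.6 CPM for GSK591 alone and 9.19 and 10.8 CPM for MS023 alone. With Dex it stood at 10.3 and 5.20 CPM beside GSK591, from 73 and 34 counts, and at 11.7 and 13.9 CPM beside MS023. Replicate 2 of GSK591 with Dex is thus the lowest of all 14 libraries for this gene. The change was -0.56 ± 0.22 beside GSK591 (95% interval -0.99 to -0.12, adjusted p 0.152) and 0.37 ± 0.20 beside MS023 (-0.03 to 0.77, adjusted p 0.291). Without replicate 1 of GSK591 with Dex the first value was -1.15 (adjusted p 0.00658), and without replicate 2 it was -0.15 (adjusted p 0.863). Scaled by library size alone it was -0.75 (adjusted p 0.0456). The difference between the Dex effects, -0.93 ± 0.29, had an adjusted p of 0.124, and was -1.53 (adjusted p 0.00379) without replicate 1 and -0.54 (adjusted p 0.587) without replicate 2.

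The split within the trio showed as a shift of its shares. CXCL2 took 43.4% to 50.9% of the counts of CXCL1, CXCL2 and CXCL3 in the 10 libraries without Dex. In the Dex libraries it took 66.5% (exact binomial 95% interval 61.8 to 71) and 73.1% (67.8 to 78) beside GSK591 and 63.1% (58.6 to 67.3) and 61.3% (57.2 to 65.2) beside MS023. The shares of the 2 sets of libraries did not overlap. Intervals cover counting error only, and the share was chosen after the values were seen, so it is given with no test. A share within a library does not depend on how libraries are scaled. At 3 h the share of CXCL2 was 44.3% and 43.4% with GSK591 and 47.4% and 48.6% with MS023. The lowest of these, 43.4%, was just under the 43.8% to 50.9% of the other 6 libraries without Dex.

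**Figure D3:**
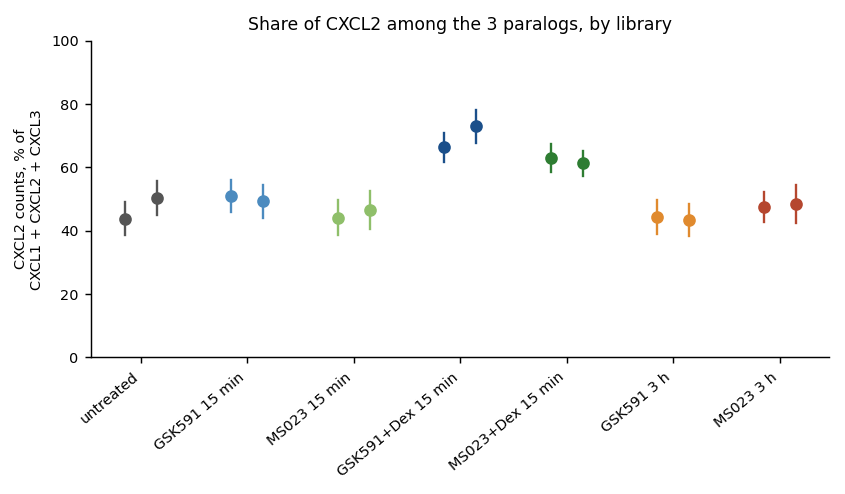
CXCL2 counts as a percentage of the counts of CXCL1, CXCL2 and CXCL3 together (vertical axis, from 0), for each of the 14 libraries by group. Bars are exact binomial 95% intervals for counting error. The 4 Dex libraries lie between 61.3% and 73.1% and the other 10 between 43.4% and 50.9%.

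CXCL5, the neutrophil chemokine ENA-78, had the smallest averaged change with Dex of the 8 genes. It ran from 11.2 to 13.3 CPM in the Dex libraries and from 10.7 to 13.2 CPM with an inhibitor alone for 15 min. The averaged change was 0.01 ± 0.12 (95% interval -0.24 to 0.25, adjusted p 0.983). Beside GSK591 it was -0.06 ± 0.17, and -0.18 or 0.05 without replicate 1 or 2 of GSK591 with Dex. CXCL8 had an averaged change of 0.48 ± 0.38 (-0.29 to 1.26, adjusted p 0.477), an interval that includes both no change and a rise as large as that of CXCL2. Beside GSK591 it was 0.31 ± 0.50, and 0.49 or 0.13 without replicate 1 or 2 of GSK591 with Dex.

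CCL2 ran from 3.88 to 5.94 CPM in the Dex libraries and from 5.40 to 7.14 CPM with an inhibitor alone for 15 min. It stood at 4.67 and 3.88 CPM with MS023 and Dex, below both 15 min libraries of MS023 alone at 7.14 and 5.40 CPM, while the libraries beside GSK591 overlapped. Its change was -0.57 ± 0.25 beside MS023 (95% interval -1.07 to -0.08, adjusted p 0.159) and -0.11 ± 0.25 beside GSK591 (adjusted p 0.882). Averaged, it was -0.34 ± 0.17 (adjusted p 0.219). Without replicate 1 of MS023 at 15 min the value beside MS023 was -0.34 (adjusted p 0.723) and the averaged one -0.22 (adjusted p 0.601). The value beside GSK591 was -0.26 without replicate 1 of GSK591 with Dex and 0.03 without replicate 2.

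IL11 and LIF, the detectable IL-6 family members of the group, had lower means with Dex in both pairs, with no call. IL11, a cytokine tied to fibrosis and to platelet production, stood at 7.07 and 10.1 CPM beside GSK591 with Dex against 11.0 and 8.70 CPM without. Beside MS023 it stood at 11.2 and 6.97 CPM with Dex against 12.4 and 10.5 CPM without. The libraries overlapped in both pairs, and the averaged change was -0.28 ± 0.15 (95% interval -0.58 to 0.03, adjusted p 0.25). Without replicate 1 of MS023 with Dex it was -0.46 (adjusted p 0.0648), and without replicate 2 it was -0.12 (adjusted p 0.726). Beside GSK591 the change of IL11 was -0.20 ± 0.22, which became 0.04 without replicate 1 of GSK591 with Dex and -0.46 without replicate 2.

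LIF, leukemia inhibitory factor, acts through LIFR and gp130 in development and in inflamed tissue. It stood at 39.5 and 37.0 CPM with GSK591 and Dex, below the 49.0 and 41.0 CPM of GSK591 alone. With MS023 and Dex it stood at 47.1 and 35.1 CPM, on either side of the 45.1 and 43.7 CPM of MS023 alone. The averaged change was -0.17 ± 0.09 (95% interval -0.35 to -0.0018, adjusted p 0.194). Without replicate 1 of MS023 with Dex it was -0.28 with an adjusted p of 0.0392, and without replicate 2 it was -0.07 with an adjusted p of 0.715. Beside GSK591 the change of LIF was -0.23 ± 0.12, and -0.28 or -0.18 without replicate 1 or 2 of GSK591 with Dex.

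Scaled by library size alone, the median of all genes in the averaged comparison moved to -0.19, and LIF at -0.36 (adjusted p 0.0135), IL11 at -0.46 (adjusted p 0.0247) and CCL2 at -0.53 (adjusted p 0.0358) were called lower, where 20% of all genes were called. All 3 had values below 0 in the main analysis too, without a call. Over the 8 members the median averaged change was -0.12, with 3 above 0 and 5 below, beside a median of -0.00151 over all genes tested.

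Among the other chemokine ligands, CCL20 rose with Dex. CCL20 draws lymphocytes and dendritic cells through CCR6. It stood at 2.57 and 2.63 CPM with MS023 and Dex against 0.86 and 0.60 CPM with MS023 alone, and at 1.70 and 1.07 CPM with GSK591 and Dex against 0.12 and 0.48 CPM with GSK591 alone. Every Dex library was thus above every library of an inhibitor alone, from counts of 1 to 23 over the 14 libraries. Its averaged rise was 1.97 ± 0.42 on the log2 scale (edgeR adjusted p 0.000873). The change was 1.77 ± 0.49 beside MS023 (adjusted p 0.0158, not called without any 1 of those 4 libraries) and 2.18 ± 0.68 beside GSK591 (adjusted p 0.0635). Of the 22 other chemokine ligands listed 4 passed the filter, and CCL20 was the 1 called. CCL20 passed only through its Dex libraries, since its group means without Dex were 0.12 to 0.81 CPM. Its rise is therefore described here and is not independent support for an effect of Dex. In the averaged comparison 12.5% of all genes were called.

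Of the 26 other cytokines listed 15 were tested, and 1 was called in the averaged comparison, against 12.5% of all genes. CTF1, cardiotrophin 1 of the IL-6 family, rose by 0.45 ± 0.13 (adjusted p 0.0187), a call lost in 7 of 15 alternatives, among them DESeq2. CSF3, the granulocyte colony-stimulating factor, fell beside MS023 by 0.61 ± 0.19 on the log2 scale (adjusted p 0.031). That call was lost in 4 of 11 alternatives, and its value beside GSK591 was -0.06 ± 0.19. TNF held 0 to 2 counts per library, IL1A 1 to 7 and CSF2 0 to 3, and none of these passed the filter.

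Several receptor and signalling genes of the IL-6 family, an inhibitor of signalling among them, rose with Dex averaged over both inhibitors. The list of receptors and signalling genes held 17, of which 13 were tested. All 13 were IL-6 family receptors or genes of JAK and STAT signalling. In the averaged comparison 5 rose and 0 fell, where 12.5% of all genes were called in either direction. LIFR, the receptor subunit that binds LIF, stood at 9.70 and 11.6 CPM with MS023 and Dex against 3.03 and 4.05 CPM with MS023 alone. Beside GSK591 it stood at 12.2 and 6.73 CPM with Dex against 6.95 and 4.17 CPM without, so that replicate 2 with Dex lay within the range of GSK591 alone. Its averaged rise was 1.20 ± 0.18 (adjusted p 6.6e-06). IL6ST, the shared subunit gp130, rose by 0.54 ± 0.12 (adjusted p 0.0013), and SOCS1, which blocks JAK signalling, by 0.54 ± 0.10 (adjusted p 0.000128). JAK1, a kinase bound to gp130, rose by 0.30 ± 0.09 (adjusted p 0.0187), a call lost in 6 of 15 alternatives. Beside MS023 alone 4 of the 13 were called higher, and beside GSK591 alone 0 were called, against 8.97% and 3.7% of all genes. For the difference between those effects edgeR called 0 of the 13. The median averaged change of the 13 was 0.12.

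Receptors of the chemokines were near or at 0 in these cells, and none passed the filter. CXCR1 and CCR2 had no count in any library, where 3 counts would amount to 0.317 to 0.459 CPM. CXCR2 had 0 to 3 counts and the scavenging receptor ACKR1 had 0 to 2.

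**Figure D4:**
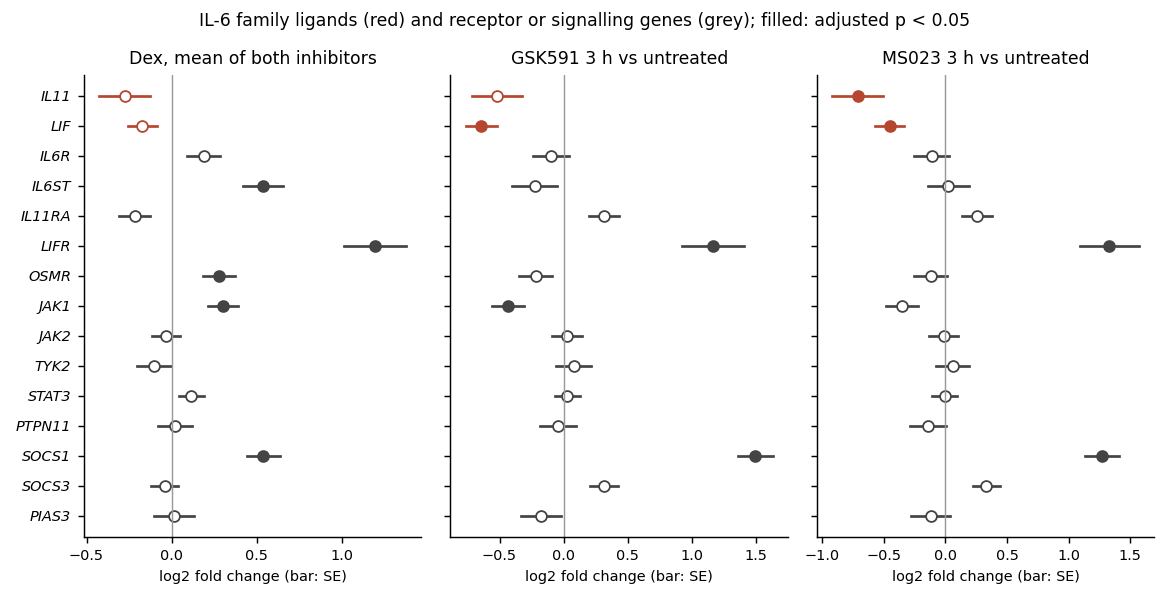
Log2 fold change (horizontal axes, bars are SE) of the tested ligands IL11 and LIF (red) and of 13 receptor and signalling genes (grey) for Dex averaged over both inhibitors and for 3 h of each inhibitor against untreated cells. Filled points have an adjusted p under 0.05. LIFR and SOCS1 are filled in all 3 panels on the higher side, and LIF is filled on the lower side at 3 h.

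NFKBIA, TNFAIP3 and ZFP36, which restrain NF-κB or AU-rich mRNA, rose in the same libraries. Of 14 NF-κB pathway genes, all tested, 2 rose and 3 fell in the averaged comparison, with a list median of -0.02. Of all genes, 12.5% were called there in either direction. NFKBIA, the inhibitor that holds NF-κB in the cytoplasm and itself a gene on the glucocorticoid-induced list, rose by 1.42 ± 0.07 (adjusted p 2.45e-18), from 110 ± 12 to 249 ± 23 CPM beside GSK591 and from 97.2 ± 10 to 307 ± 11 CPM beside MS023 (SD, n = 2). TNFAIP3, which encodes the ubiquitin editor A20, rose by 0.99 ± 0.13 (adjusted p 7.29e-07). NFKB2, an NF-κB subunit, fell by 0.51 ± 0.08 on the log2 scale (adjusted p 4.07e-06), and IKBKG, a part of the kinase that frees NF-κB, fell by 0.35 ± 0.08 (adjusted p 0.00131).

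Of 8 listed RNA-binding regulators of mRNA decay, not all of which speed it, all were tested. In the averaged comparison 4 rose and 0 fell, against 12.5% of all genes called, with a list median of 0.20. Beside GSK591 1 was called, with a median of 0.05, and beside MS023 4, with a median of 0.40. The shares of all genes called were 3.7% and 8.97%. ZFP36, known as tristetraprolin, rose by 1.55 ± 0.07 (adjusted p 6.32e-20), from 104 ± 2.1 to 267 ± 12 CPM beside GSK591 and from 94.9 ± 2.0 to 317 ± 21 CPM beside MS023. The other 3 calls were smaller. RC3H1, the RNA-binding protein roquin, had 0.35 ± 0.10 (adjusted p 0.0159, kept in 10 of 15 alternatives), ZC3H12A, the nuclease regnase, had 0.29 ± 0.08 (adjusted p 0.00773, kept in 13) and HNRNPD, also known as AUF1, had 0.25 ± 0.08 (adjusted p 0.0288, kept in 7). HNRNPD had 0.02 ± 0.11 beside GSK591 and 0.48 ± 0.11 beside MS023, a difference that was not called (adjusted p 0.177). ZFP36L2, a relative of ZFP36, had -0.14 ± 0.10 beside GSK591 (adjusted p 0.545) and rose by 0.44 ± 0.10 beside MS023 (adjusted p 0.00296). It was the 1 listed decay factor called for the difference, at -0.58 ± 0.14 (adjusted p 0.0313), a call lost in 8 of 15 alternatives.

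Other inflammatory genes that glucocorticoids are known to repress moved both ways. Of 20 listed 14 were tested, and 3 rose and 4 fell in the averaged comparison, with a median of -0.08. Of all genes, 12.5% were called there in either direction. PLAU, the protease urokinase, fell by 0.47 ± 0.11 on the log2 scale (adjusted p 0.00165). TNFAIP2 fell by 0.48 ± 0.07 (adjusted p 3.59e-06) and the early response gene IER3 by 0.36 ± 0.07 (adjusted p 0.000195).

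At 15 min without Dex, neither inhibitor called a member. With GSK591 edgeR called 0 of 8, against 0.306% of all genes, and with MS023 0 of 8, against 0.183%. At an unadjusted p under 0.05 there were 1 and 0, and DESeq2 called 0 in both. The value under 0.05 was CXCL2 with GSK591, at 0.31 ± 0.14 (95% interval 0.02 to 0.60, adjusted p 0.679). The 8 values ran from -0.31 to 0.33 with GSK591 and from -0.57 to 0.26 with MS023, the ends of the latter being CXCL8 and CCL2. SOCS1 was the 1 receptor or signalling gene called with GSK591, at 0.69 ± 0.14 (adjusted p 0.0133), a call lost in 4 of 11 alternatives, among them without either untreated library. With MS023 the decay factor ZFP36L1 fell by 0.49 ± 0.10 (adjusted p 0.0192), a call lost in 5 of 11.

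After 3 h, LIF was lower with both inhibitors than in untreated cells, and IL11 with MS023. LIF (ENSG00000128342.4) stood at 45.4 and 48.0 CPM in untreated cells, at 31.3 and 28.4 CPM after 3 h of GSK591 and at 32.5 and 35.9 CPM after 3 h of MS023. The 4 libraries at 3 h thus lay below both untreated libraries, from raw counts of 244 to 298 against 422 and 438. The change with GSK591 was -0.64 ± 0.12 (SE), or 0.641-fold, with an adjusted p of 0.000198. LIF was the 1 member of 8 called there, where 11% of all genes tested were called, and it held in all 11 alternatives, from -0.71 to -0.51.

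With MS023 the change of LIF was -0.45 ± 0.12, with an adjusted p of 0.0116. IL11 (ENSG00000095752.6) stood at 12.8 and 11.6 CPM in untreated cells and at 7.31 and 7.62 CPM after 3 h of MS023, a change of -0.71 ± 0.21 (adjusted p 0.0232). These were the 2 of 8 members called, against 7.63% of all genes. Both calls were fragile. IL11 lost it without any 1 of the 4 libraries compared (adjusted p 0.0832 to 0.191) and with DESeq2 (0.101). LIF lost it without untreated replicate 1 (0.0594) or 2 (0.168), without MS023 3 h replicate 1 (0.189), with DESeq2 (0.0537) and when scaled by library size alone (0.0998). In the authors' deposited table LIF had -0.68 ± 0.20 (adjusted p 0.02) with GSK591 and -0.48 ± 0.20 (adjusted p 0.218) with MS023, and IL11 -0.63 ± 0.36 (adjusted p 0.502) with MS023.

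Some counts of LIF may come from the other strand. Its exons share 267 bases with 2 antisense genes, LIF-AS1 (79 to 150 counts per library) and AC004264.1 (34 to 110), and whether counting used strand is not given in the sources used here. At 3 h against untreated cells LIF-AS1 had -0.39 ± 0.17 with GSK591 (adjusted p 0.154) and -0.33 ± 0.18 with MS023 (adjusted p 0.299). AC004264.1 had 0.25 ± 0.24 and 0.43 ± 0.24 (adjusted p 0.566 and 0.32). The part of these genes in the value of LIF was not tested.

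**Figure D5:**
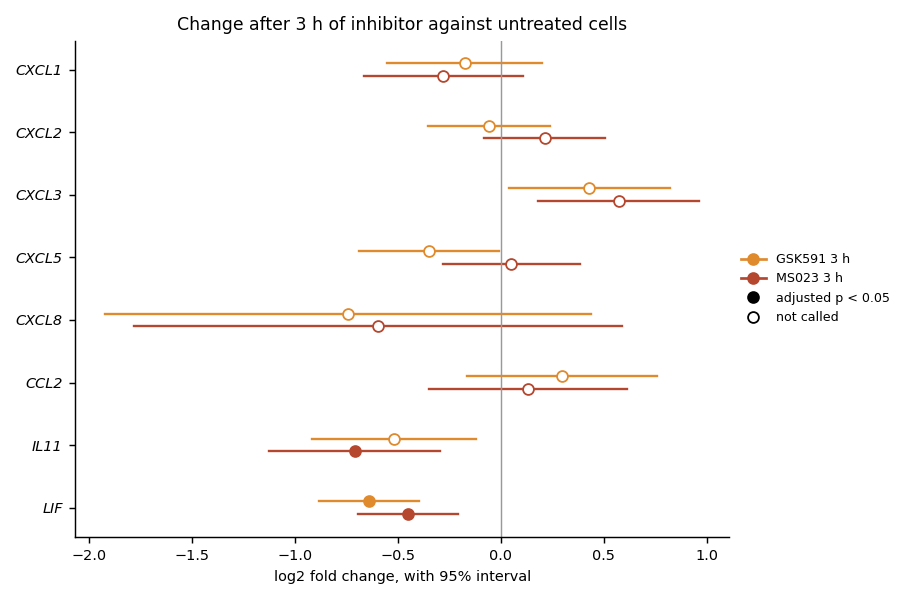
Log2 fold change (horizontal axis) after 3 h of GSK591 (orange) or MS023 (red) against untreated cells for the 8 members tested. Bars are 95% intervals and filled points have an adjusted p under 0.05. LIF is called with both, at -0.64 and -0.45, and IL11 with MS023 at -0.71.

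Set against 15 min of the same inhibitor, LIF was again lower. With GSK591 it went from 49.0 and 41.0 CPM at 15 min to 31.3 and 28.4 CPM at 3 h, a change of -0.59 ± 0.12 (adjusted p 0.00153). It was the 1 member called, against 6.41% of all genes, and was not called without GSK591 15 min replicate 1 (-0.45, adjusted p 0.0873) or GSK591 3 h replicate 2 (-0.52, adjusted p 0.0582). With MS023 the 2 members called, against 12% of all genes, were LIF at -0.38 ± 0.12 (adjusted p 0.0325) and IL11 at -0.63 ± 0.21 (adjusted p 0.0424). Without any 1 of the 4 libraries neither was called, and DESeq2 called 0 members. In the same comparisons LIF-AS1 fell by 0.65 ± 0.17 on the log2 scale with GSK591 (adjusted p 0.0146) and by 0.64 ± 0.17 with MS023 (adjusted p 0.00962), while AC004264.1 had -0.09 ± 0.23 (adjusted p 0.887) and rose by 1.22 ± 0.27 (adjusted p 0.00134). These comparisons share the 3 h libraries with those against untreated cells. IL11 with GSK591 was -0.52 ± 0.20 against untreated cells (adjusted p 0.0846, called at -0.53 with 0.0226 in a fit of these 2 groups alone) and -0.21 ± 0.21 against 15 min (adjusted p 0.638).

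The CXC chemokines gave no call at 3 h. The level of CXCL2 was 17.5 ± 1.9 CPM for GSK591 and 20.9 ± 3.3 CPM for MS023, near the 18.2 ± 2.1 CPM of untreated cells (SD, n = 2). CXCL3 was at 11.6 and 13.1 CPM for GSK591 and at 15.3 and 11.8 CPM for MS023, above both untreated libraries at 9.03 and 9.31 CPM. Its changes were 0.43 ± 0.19 (adjusted p 0.161) and 0.57 ± 0.19 (adjusted p 0.0615). The latter was called, at 0.57 (adjusted p 0.0365), in a fit of these 2 groups alone, and at 0.75 (adjusted p 0.0342) without MS023 3 h replicate 2. CXCL5 had -0.35 ± 0.17 with GSK591 (adjusted p 0.197) and 0.05 ± 0.16 with MS023, and CCL2 0.30 ± 0.23 and 0.13 ± 0.24. Over the 8 members the median change was -0.26 with GSK591 and -0.12 with MS023, beside -0.00842 and -0.0113 over all genes.

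Where LIF was lower at 3 h, its receptor was higher. LIFR stood at 9.92 and 10.3 CPM after 3 h of GSK591 and at 12.6 and 9.84 CPM after 3 h of MS023, against 4.30 and 4.71 CPM in untreated cells. It rose by 1.17 ± 0.24 (adjusted p 0.000759) and 1.33 ± 0.24 (adjusted p 0.000143). SOCS1 rose from 23.5 ± 2.4 CPM to 66.0 ± 3.1 and 56.3 ± 8.5 CPM (SD, n = 2), or by 1.49 ± 0.14 and 1.27 ± 0.14 (adjusted p 1.19e-10 and 1.04e-08). These were the genes of the receptor list called higher with each inhibitor, and 1 fell. It was JAK1 with GSK591, by 0.43 ± 0.13 on the log2 scale (adjusted p 0.0205), a call lost in 6 of 11 alternatives. Of all genes tested, 11% were called with GSK591 and 7.63% with MS023.

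In the NF-κB list at 3 h, 2 rose and 1 fell with GSK591, and 1 rose and 1 fell with MS023. For this list and those below, the shares of all genes called were 11% with GSK591 and 7.63% with MS023. NFKB2 fell by 0.69 ± 0.10 on the log2 scale with GSK591 (adjusted p 8.02e-06) and by 0.70 ± 0.11 with MS023 (adjusted p 7.64e-06). NFKBIZ, an atypical nuclear inhibitor, rose by 0.40 ± 0.11 and 0.48 ± 0.11 (adjusted p 0.0091 and 0.00192), with no call for either when untreated replicate 1 was left out, nor for GSK591 without its 3 h replicate 2. NFKBIE, a cytoplasmic inhibitor, rose by 0.71 ± 0.15 with GSK591 (adjusted p 0.00103). Of the 14 other glucocorticoid-repressed genes tested, 0 rose and 3 fell with each inhibitor. PTGES, which makes prostaglandin E, fell by 0.83 ± 0.13 with GSK591 and by 0.61 ± 0.13 with MS023. PLAUR, the urokinase receptor, fell by 0.44 ± 0.12 and 0.38 ± 0.12 (adjusted p 0.0122 and 0.0473), calls lost in 4 and 6 of 11 alternatives. Of the other cytokines, OSM of the IL-6 family fell by 0.82 ± 0.25 with GSK591 (adjusted p 0.0236), lost in 6 of 11 alternatives. TNFSF9, the ligand of the T cell receptor 4-1BB, rose by 0.81 ± 0.14 with MS023 (adjusted p 0.000106), and IL18 fell there by 0.71 ± 0.23 (adjusted p 0.0429), lost in 6 of 11. Of the listed regulators of mRNA decay, 2 rose and 1 fell with GSK591, and 1 rose and 1 fell with MS023. RC3H1 rose by 0.67 ± 0.14 with GSK591 (adjusted p 0.000682) and had 0.42 ± 0.14 with MS023 (adjusted p 0.063). ZFP36L2 rose by 0.31 ± 0.10 and 0.37 ± 0.10 (adjusted p 0.0357 and 0.0137), calls lost in 6 and 4 of 11 alternatives. ZFP36L1, also of that family, fell by 0.66 ± 0.10 with GSK591 (adjusted p 9.32e-06) and by 0.32 ± 0.10 with MS023 (adjusted p 0.0375), the latter call lost in 5 of 11.

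Between the inhibitors at matched dose and time no member was called. At 15 min edgeR called 0 of 8, against 1.09% of all genes. With Dex it called 0 of 8 and at 3 h 0 of 8, against 0% of all genes in both. In each of the 3 comparisons 1 member had an unadjusted p under 0.05 and DESeq2 called 0. These were CXCL2 at 15 min (GSK591 minus MS023, 0.40 ± 0.15, 95% interval 0.10 to 0.70, adjusted p 0.267), CXCL3 with Dex (-0.71 ± 0.21, -1.13 to -0.28, adjusted p 0.456) and CXCL5 at 3 h (-0.40 ± 0.17, -0.74 to -0.05, adjusted p 0.767). Without replicate 1 of GSK591 with Dex, CXCL3 had -1.30 (adjusted p 0.0127), and without replicate 2 it had -0.32 (adjusted p 0.995). LIF at 3 h differed by -0.19 ± 0.13 (-0.44 to 0.06). Of the receptor and signalling genes, SOCS1 at 0.56 ± 0.14 (adjusted p 0.0413) and SOCS3, another inhibitor of JAK signalling, at 0.45 ± 0.11 (adjusted p 0.0275) were higher with GSK591 than with MS023 at 15 min, each call lost in 5 of 11 alternatives.

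Ordered by group mean, most neighbouring groups overlapped in their libraries. For CXCL2 the order from the lowest was MS023 15 min, GSK591 3 h, untreated, MS023 3 h, GSK591 15 min, GSK591 with Dex and MS023 with Dex, and only the step from GSK591 15 min to GSK591 with Dex had no overlap between neighbours. For LIF it was GSK591 3 h, MS023 3 h, GSK591 with Dex, MS023 with Dex, MS023 15 min, GSK591 15 min and untreated, and the first 2 steps had no overlap. For CXCL1, CXCL5 and IL11 every pair of neighbours overlapped. CXCL1 and IL11 were both highest in untreated cells, at 11.3 ± 1.5 and 12.2 ± 0.84 CPM (SD, n = 2).

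Each member had its own set of genes with the most similar course over the 14 libraries, by Pearson's r of log2 CPM among 17471 genes with at least 2 CPM. For CXCL2 these were ZFAND5 (0.975), ITGB5 (0.957) and IRS2 (0.955), and for LIF they were PLD4 (0.935), MYADM (0.931) and DDX11L5 (0.919). For CXCL3 they were PRODH (0.939), FBXO6 (0.93) and PTGER1 (0.914), for CXCL1 HNRNPMP1 (0.93), USP45 (0.879) and AC087269.1 (0.864), and for IL11 LINC01144 (0.898), DDX18 (0.854) and METTL1 (0.84). For CCL2 they were C16orf71 (0.901), LETMD1 (0.881) and MRPL53 (0.854), and for CXCL5 RWDD1 (0.805), AC092574.2 (0.796) and HSFX1 (0.796). These were picked as the highest of many and share library depth and scaling, so they describe these libraries.

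Among the members themselves IL11 and LIF were the most alike, with r = 0.742 over the 14 libraries, and CXCL2 and CCL2 the most opposed, at -0.692. CXCL2 had r = -0.0833 with CXCL1 and -0.0615 with CXCL3, while CXCL1 and CXCL3 had 0.462. These values pool groups that differ in treatment and are given with no test.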

How the data were processed

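PRO-seq of A549 cells was deposited as raw counts per gene for 14 libraries, made by the authors with featureCounts 2.0.1 of Subread on hg38, per the submitters' processing notes. The aligner, the counted feature (exons or whole genes), the strand setting and the treatment of reads that fit several genes are not given in the sources used here. The authors also deposited DESeq2 tables of each treatment against control, with a mean normalized signal per gene, log2 fold changes, a test score and p-values, per the file headers. Their fold changes and p-values are printed only where the authors' table is named.

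The counts were fitted in edgeR 4.0.16 (R 4.3.3) with TMM scaling, filterByExpr (minimum count 10) and the quasi-likelihood test. A single fit of all 14 libraries with 1 mean per group left 7 residual degrees of freedom. It covered 21910 of 58780 genes and gave 15 contrasts, with Benjamini-Hochberg adjustment over all genes in each and a call at an adjusted p under 0.05. The test was checked on simulated data. Levels are CPM on TMM-scaled library sizes, and a gene's level per kilobase uses its merged exon length. A spike-in is not given in the sources used here, so changes are relative to the bulk of genes. Depth limits the precision of genes with few counts, and exact binomial intervals cover counting error only.

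The table lacked symbols for 22731 genes, which were not counted as members. Positions and exon lengths are from GENCODE 29 and promoters from RefSeq (GRCh38.p14). The text may name the 9 genes, up to 4 called genes with the smallest p per fixed list and contrast, and the 3 genes most like each member. Not all listed genes that met this rule are named, and some are not reported here. The members and lists were chosen with earlier results of these data known. Alternatives were other scalings, filters and libraries in the fit, DESeq2 1.42.0, a replicate block and leaving out each library in turn.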

Additional observations from a re-analysis of the deposited data

Results flagged for a closer look

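ZFP36L2, an AU-rich mRNA decay factor related to ZFP36, differed in its response to Dex between the inhibitors by the test of that difference. Its change was -0.14 ± 0.10 on the log2 scale beside GSK591 and 0.44 ± 0.10 beside MS023 (SE), a difference of -0.58 ± 0.14 (edgeR adjusted p 0.0313). The call was lost in 8 of 15 alternatives, among them DESeq2 and those without replicate 1 of GSK591, replicate 1 of MS023, replicate 2 of GSK591 with Dex or either replicate of MS023 with Dex.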

How the results depend on the processing

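No result changed sign while called under any alternative run. Counts of members called that moved by over 1.5 times were as follows. With only the groups compared in the fit, 2 members were called for MS023 with Dex against untreated cells and 2 for GSK591 3 h against untreated cells, in place of 1 each. Those fits called 2620 of 20395 and 3422 of 20563 genes in all, against 1679 and 2419 of 21910 in the main fit. With library size alone as scaling, 1 was called for MS023 3 h against untreated cells in place of 2, where 1001 genes in all were called in place of 1672. For Dex averaged 4 were called in place of 1, where the share of all genes called rose from 12.5% to 20%. That scaling moved the median of all genes for Dex averaged to -0.191, for Dex beside GSK591 to -0.208 and beside MS023 to -0.19. DESeq2 called 0 members for MS023 3 h against untreated cells and 0 against 15 min, in place of 2 each. It called 956 and 1506 genes in all there, in place of 1672 and 2640. Leaving out 1 library left its group with a single library, assumed to vary like the others. The count then ran from 1 to 2 for MS023 with Dex against untreated cells, from 0 to 2 for MS023 3 h against untreated cells, from 1 to 2 for Dex beside GSK591, from 1 to 2 for Dex averaged, from 0 to 1 for the difference between the Dex effects, from 0 to 1 for GSK591 3 h against 15 min, from 0 to 0 for MS023 3 h against 15 min and from 0 to 1 between the inhibitors with Dex. The cause of these shifts was not tested. Same-numbered libraries showed little shared deviation. Over 21 pairs of groups the correlation of their deviations ran from -0.0778 to 0.152, above 0.1 in 2. The labels do not say whether a replicate number marks a shared culture, day or batch, and these values cannot settle it. With the replicate number as a block the count of members called was 1 for Dex averaged and the same as without it in all 15 contrasts. Over all alternatives the members gave 1307 values on the same side of the threshold, 13 newly called and 23 no longer called. CXCL8 and IL6 were limited by depth.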
